A study of Homo sapiens with 4 samples.

Results

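The genes that sense, signal and repair DNA double-strand breaks were described in untreated HaCaT keratinocytes. The set holds 39 named genes, taken by their symbol from RNA-seq tables of 44591 rows, of which 19233 were protein-coding and 12165 of those were detected. HaCaT is a keratinocyte line from human skin that became immortal by itself, so it does not stand for primary keratinocytes. All 4 replicates belonged to 1 group: they were grown in DMEM with 12% fetal bovine serum per the labels and received no treatment. They are biological repeats per the study, which irradiated such cells in its other experiments, and no irradiated or knockdown library was analysed here. The data therefore give the transcript levels of the repair machinery before any damage, the order of those levels and their spread between replicates, and no comparison between conditions.

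A broken chromosome leads to the activation of kinases of one family. They mark the chromatin around the break and signal through the checkpoint kinases to hold the cell cycle. The ends are then either joined directly, by the Ku heterodimer, DNA-PK and ligase IV, or cut back by nucleases so that the sister chromatid can be copied. Mediators on the chromatin, TP53BP1 and RIF1 on one side and BRCA1 on the other, bear on which route is taken, and ionizing radiation is a classical source of such breaks in skin.

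The replicates were unequal. Replicate 1 held 73082279 counts and the others 17056035 to 19745170, and protein-coding rows took 76.1% of the counts in replicate 1 and 95.3% to 96.4% in the others. Across the 12165 detected genes, Spearman's rho between replicate 1 and the others was 0.754 to 0.780, and among replicates 2, 3 and 4 it was 0.944 to 0.967. The same order held for the 39 genes, with 0.476 to 0.641 and 0.794 to 0.941. Both replicate 1 and replicate 3 stood apart for these genes, in ways that moved with GC content and gene length. Some results are also given without them, and the others are over all 4 replicates. All 8 keratinocyte markers were above 1 TPM, with sums of 13763 to 19141 TPM per replicate. Of the markers of other cells, 2 of 7 for fibroblasts, 1 of 5 for leukocytes, 1 of 4 for melanocytes and 0 of 3 for endothelium had a mean above 1 TPM, and the sums stayed between 0.859 and 9.70 TPM, with PECAM1 and TYR listed at 0 in all 4 replicates.

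Levels are given as TPM (each transcript level as a part of 1000000 per library), computed over protein-coding genes from the deposited counts and gene lengths, as mean ± SD of n = 4 replicates. All 39 genes had a mean above 1 TPM, the limit used for detection, as did 63.3% of protein-coding genes. They were mostly moderate: the median of the 39 means was 19.8 TPM against 24.5 TPM for all detected genes, 12 were above and 27 below that value, and 27 lay between 10 and 40 TPM. Without replicate 1 or without replicate 3, 14 genes were above the median gene, and without both 16 were. The count behind a value was never below 79 reads in any replicate. In RNA from a whole culture, fewer cells with a transcript and less RNA per cell cannot be told apart.

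XRCC6 (chr22:42017167-42060052 on hg19, the build of the files) was the highest of the set, followed by XRCC5 (chr2:216974020-217071016). XRCC6 had 669, 494, 646 and 476 TPM in replicates 1 to 4 and XRCC5 had 373, 180, 244 and 207 TPM. The 4 values of XRCC6 lay above all 4 of XRCC5, and those of XRCC5 above all 4 of PRKDC, the third gene. Of the 38 neighbours in the order of means, these were the only 2 whose values did not overlap, so from PRKDC downwards no gene is set apart from the next at this spread. The other means above 40 TPM were those of TOPBP1, XRCC3, RBBP8 and TP53BP1. At the low end RAD51B had 5.01, 1.25, 1.10 and 2.14 TPM, RAD54B 6.59, 4.90, 4.62 and 4.99 TPM, and RAD52 8.37, 6.01, 3.82 and 5.65 TPM, and LIG4 and BRCA2 were the others with a mean under 10 TPM. The length that the files give for RAD51B was 3.65 times its longest principal coding transcript in GENCODE 29, and for RAD54B it was 2.76 times. With that transcript as the length, the means would be 8.67 TPM for RAD51B and 14.6 TPM for RAD54B, so the low places of both depend on the length used. DCLRE1C (2.96 times) and CLSPN (2.22 times) were affected likewise, with means of 33.2 in place of 11.2 TPM and of 37.7 in place of 17.0 TPM, while 33 genes were within 1.5 times of that transcript. RAD51C and RAD51D were shorter in the files than that transcript by over 1.5 times. Their means of 20.5 and 20.9 TPM would be 11.9 and 5.40 TPM, which would make RAD51D the lowest of the set. The longest principal transcript of RAD51D has 9988 bases and the shortest 2287, against 2583 in the files. With the shortest its mean would be 23.6 TPM, so its place depends on the transcript taken.

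**Figure D1:**
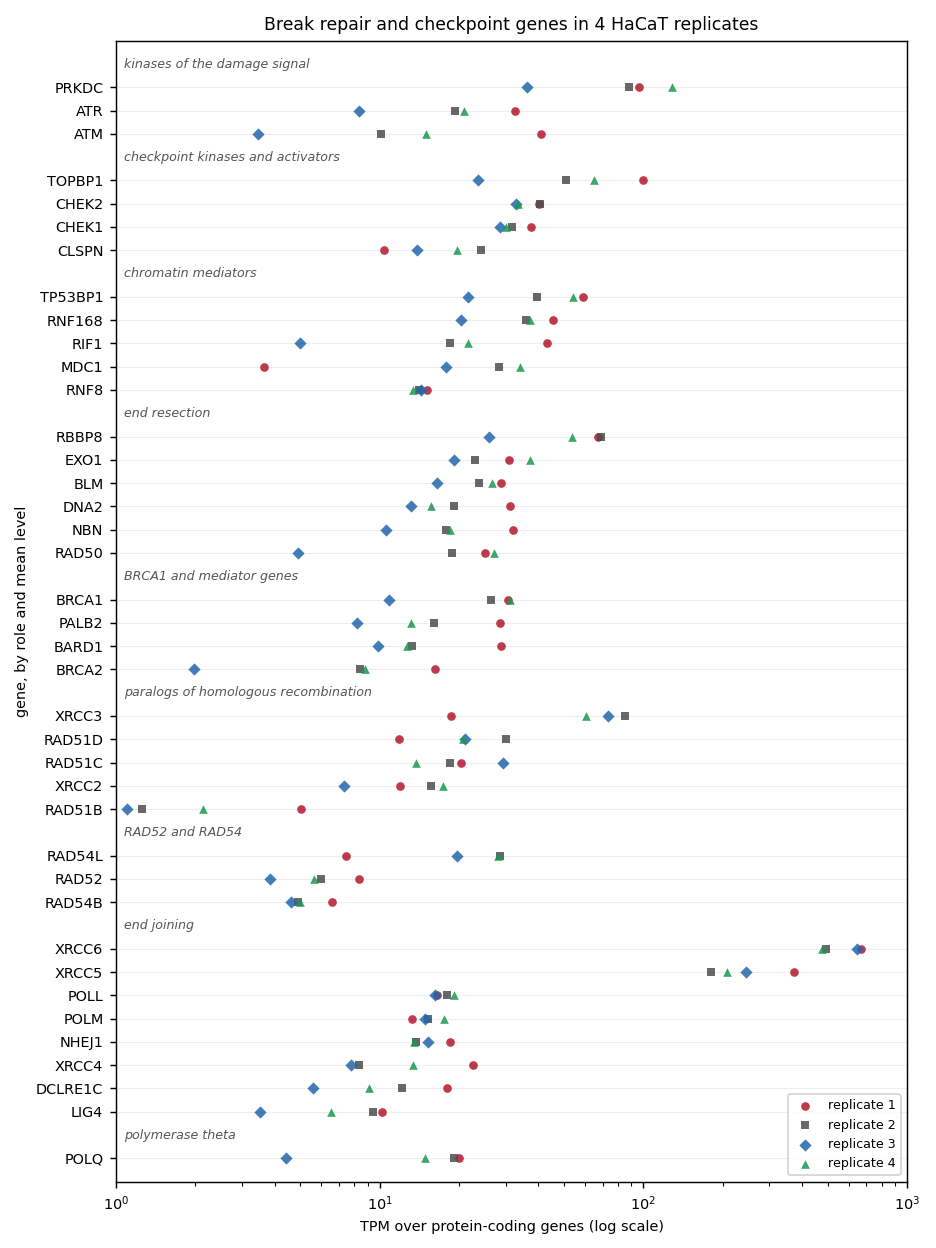
TPM over protein-coding genes (log scale) of the 39 genes in each of the 4 HaCaT replicates, grouped by role and ordered by mean within a role; each symbol is 1 replicate. XRCC6 and XRCC5 lie to the right of all others. Replicate 3 (blue diamonds) is the lowest of the 4 for 28 of the 39 genes, and for 40.2% of detected genes.

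The promoters of RefSeq (GRCh38.p14, 250 bases before to 50 after each start) were searched for E2F sites, which many genes of DNA replication carry, since the set holds genes known to follow the cell cycle. Entries were found for 34 of the 39 genes, with 52 starts in all. The letters TTTCCCGC, TTTCGCGC, TTTGCCGC or TTTGGCGC, on either strand, stood in 5 of the 52 windows (9.62%) and in 3.31% of all 35116 windows of that length. The 5 stretches follow, read along the strand of the gene and 30 bases long, with the match in capitals.
CLSPN, chr1:35769965-35769994, minus strand: actctggctggGCGGGAAAgcaagaacagc
EXO1, chr1:241848197-241848226, plus strand: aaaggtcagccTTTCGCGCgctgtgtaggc
TOPBP1, chr3:133661930-133661959, minus strand: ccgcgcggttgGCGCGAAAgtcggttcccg
XRCC2, chr7:152676102-152676131, minus strand: tggcgttggtgGCGGGAAAgttgagtctct
XRCC6, chr22:41621315-41621344, plus strand: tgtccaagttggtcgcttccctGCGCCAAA
The match lay across the start in CLSPN and TOPBP1 and after it in EXO1, XRCC2 and XRCC6. These 5 genes had means from 13.1 TPM (XRCC2) to 572 TPM (XRCC6), so the match went with no one level. CCAAT was found in 48.1% of the windows of the set and 34.6% of all, and TTTGAA in 7.69% and 15.2%. A match of letters is a description of the sequence and no evidence of binding.

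Among the kinases of the damage signal, PRKDC, the catalytic subunit of DNA-PK, had 96.2, 87.9, 36.1 and 128 TPM (87.1 ± 38.3). ATR, which answers to single-stranded DNA, had 32.5, 19.3, 8.33 and 20.9 TPM. ATM (chr11:108093559-108239826), the kinase activated at double-strand breaks, had 41.0, 10.1, 3.44 and 15.0 TPM, the widest spread of the set with a coefficient of variation of 94.8%. ATM was above ATR in replicate 1 and below it in the other 3, and all 3 kinases were lowest in replicate 3. The log2 difference of ATR minus ATM was 0.52 ± 0.62 over 4 replicates and 0.80 without replicate 1.

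The checkpoint kinases downstream were among the steadiest genes by TPM over protein-coding genes. CHEK1, the target of ATR, had 37.5, 31.8, 28.7 and 30.2 TPM, and CHEK2, the target of ATM, had 40.3, 40.5, 32.8 and 33.4 TPM, with coefficients of variation of 12.1% and 11.5%. CHEK2 was higher in 4 of 4 replicates by the length in the files, but with the shortest principal transcript of each gene as its length CHEK1 was higher in 4 of 4 by 1.04 on the log2 scale, so their order cannot be set. TOPBP1, an activator of ATR, had 100, 50.7, 23.5 and 64.8 TPM. CLSPN, which brings CHEK1 to ATR, had 10.4, 24.2, 13.8 and 19.6 TPM. On this scale TOPBP1 was thus highest in replicate 1, where CLSPN was lowest.

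On the chromatin, TP53BP1, which limits the cutting back of ends, had 58.8, 39.5, 21.7 and 54.2 TPM, the highest mean of the mediators (43.5 ± 16.8 TPM). Its effector RIF1 had 43.2, 18.5, 4.97 and 21.7 TPM. MDC1 (chr6:30667584-30685458), the scaffold that binds phosphorylated H2AX, had 3.64, 28.4, 17.8 and 34.0 TPM, so replicate 1 lay far below the other 3. The antisense row MDC1-AS1 was also low there, at 2 counts against 55, 38 and 86, and the sources used here do not say whether counting used the strand. By TPM over protein-coding genes the ubiquitin ligase RNF8 was the steadiest gene of the set, at 15.1, 14.1, 14.3 and 13.4 TPM (coefficient of variation 4.87%). RNF168, the ligase that acts after it, had 45.3, 35.9, 20.3 and 37.0 TPM and lay above RNF8 in 4 of 4 replicates.

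The genes of end resection lay close together apart from RBBP8. RBBP8, which starts the cut together with the MRE11 complex, had 67.3, 69.3, 25.9 and 53.6 TPM. RAD50 and NBN, subunits of that complex, had 25.0, 18.8, 4.91 and 27.1 TPM and 31.9, 17.8, 10.6 and 18.4 TPM. Neither was above the other throughout: RAD50 was higher in replicates 2 and 4 and NBN in replicates 1 and 3. The nucleases EXO1 and DNA2 had 30.8, 22.9, 19.1 and 37.2 TPM and 31.1, 19.2, 13.1 and 15.7 TPM, and the helicase BLM had a mean of 23.9 ± 5.35 TPM.

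Of the genes that act on the resected end in homologous recombination, BRCA1 had 30.6, 26.5, 10.8 and 31.2 TPM and its partner BARD1 had 28.8, 13.2, 9.84 and 12.7 TPM. BARD1 was below BRCA1 in 4 of 4 replicates, by little in replicates 1 and 3. PALB2, which links BRCA1 to BRCA2, had 28.6, 16.1, 8.20 and 13.1 TPM, and BRCA2, a mediator of strand exchange, had 16.2, 8.44, 1.98 and 8.81 TPM. Both were highest in replicate 1 and lowest in replicate 3.

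The paralogs of homologous recombination, which act in complexes at the resected end, ran from XRCC3 to RAD51B and did not share one pattern. XRCC3 had 18.6, 84.9, 73.4 and 60.6 TPM, with replicate 1 far below the rest, while RAD51B was highest in replicate 1. RAD51C had 20.3, 18.4, 29.3 and 13.7 TPM and was the only gene of the 39 with its highest value in replicate 3. Of detected genes, 13.3% were highest there. RAD51D had 11.8, 30.0, 21.0 and 20.7 TPM, and XRCC2 had 11.9, 15.7, 7.35 and 17.3 TPM. The row RAD51L3-RFFL, on the same strand as RAD51D and overlapping it, took 0 counts in replicate 1 and 815, 626 and 693 counts in the others, more than the 516, 488 and 398 counts of RAD51D itself there. The level of RAD51D is therefore uncertain. XRCC3 overlaps KLC1 on the opposite strand, as RAD54L does LRRC41 and XRCC4, a gene of end joining, does TMEM167A. In all, 16 genes of the set overlap a row on the opposite strand, and the strand setting of the counting is not known. RAD54L, a motor protein of homologous recombination, had 7.44, 28.5, 19.7 and 28.2 TPM, with replicate 1 again far below the others. Its relative RAD54B shares its locus with FSBP, which took 0 counts in replicate 1 and 20 to 28 in the others.

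End joining held both the highest genes and some of the lowest. Beside XRCC6 and XRCC5, which form the ring of Ku around the end, stood 6 genes with means of 7.43 to 17.5 TPM. LIG4, the ligase of the pathway, had 10.2, 9.46, 3.52 and 6.53 TPM, and XRCC4, its scaffold, had 22.6, 8.34, 7.78 and 13.4 TPM. NHEJ1, the factor also called XLF, had 18.5, 13.7, 15.2 and 13.5 TPM, and the nuclease DCLRE1C (Artemis) 18.0, 12.1, 5.57 and 9.08 TPM. By TPM over protein-coding genes NHEJ1 was among the steady genes (coefficient of variation 15.2%) and DCLRE1C was not (47.1%). The gap-filling polymerases POLL and POLM had 16.5, 18.0, 16.2 and 19.1 TPM and 13.3, 15.3, 14.9 and 17.6 TPM, with coefficients of variation of 7.65% and 11.6%. POLQ, the polymerase of the alternative joining of resected ends, had 20.02, 19.15, 4.422 and 14.92 TPM, so replicate 3 lay below the other 3.

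Partner genes were then compared within each replicate, as the difference of log2(TPM + 1), since both values of a pair come from the same library. In 16 of 24 pairs the sign was the same in 4 of 4 replicates, which gives p = 0.125 in an exact permutation test over the signs (two-sided), the smallest p that 4 replicates allow, and 0.188 after Benjamini-Hochberg adjustment over the 24 pairs. No pair could therefore pass 0.05. Each pair is also given as the ratio of reads per length in each replicate, with a 95% Clopper-Pearson interval for counting error alone. XRCC6 exceeded XRCC5 by 1.22 ± 0.28 (log2), and the ratio was 1.79, 2.74, 2.65 and 2.30 in replicates 1 to 4. XRCC6 exceeded PRKDC by 2.82 ± 0.95, with a ratio of 6.96, 5.62, 17.9 and 3.71, so replicate 3 gave the widest gap. POLQ exceeded LIG4 by 0.80 ± 0.37, TP53BP1 exceeded BRCA1 by 0.80 ± 0.18 and RNF168 exceeded RNF8 by 1.17 ± 0.47. RBBP8 was above EXO1 by 0.90 ± 0.53 and PALB2 above BRCA2 by 0.95 ± 0.47, and DCLRE1C was below PRKDC by -2.82 ± 0.60.

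Several of these differences depend on a library or on the length. Without length correction XRCC6 minus PRKDC was 0.30 and did not keep its sign in 4 replicates, and PALB2 minus BRCA2 was -0.39. POLL was above POLM in 4 of 4 replicates by 0.18 ± 0.09 only, and the interval of the ratio included 1 in replicates 3 (0.949 to 1.26) and 4 (0.940 to 1.25) and started at 1.00 in replicate 2. MDC1 was below TP53BP1 by -1.27 ± 1.62, and by -0.46 without replicate 1, in which the ratio was 0.0618 (0.0570 to 0.0669) against 0.628 to 0.822 in the others. RAD51C exceeded RAD51B by 2.75 ± 0.90, TOPBP1 exceeded CLSPN by 1.65 ± 1.08 and RAD54L exceeded RAD54B by 1.66 ± 1.02. With the longest principal transcript as length these 3 differences were 0.59, 0.54 and 0.37, and none kept its sign in 4 replicates. By that length DCLRE1C minus PRKDC was -1.35 in place of -2.82, and it kept its sign in 4 replicates. The sign was the same in 4 replicates under all 3 lengths tried in 12 of the 24 pairs. Of the 8 pairs with mixed signs, RAD51C minus XRCC3 was 0.13 in replicate 1 and -2.15, -1.29 and -2.06 in the others, and LIG4 minus XRCC4 was 0.16 in replicate 2 and -1.08, -0.96 and -0.94 in the others. RAD50 minus NBN was -0.17 ± 0.64, and 0.09 without replicate 3.

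**Figure D2:**
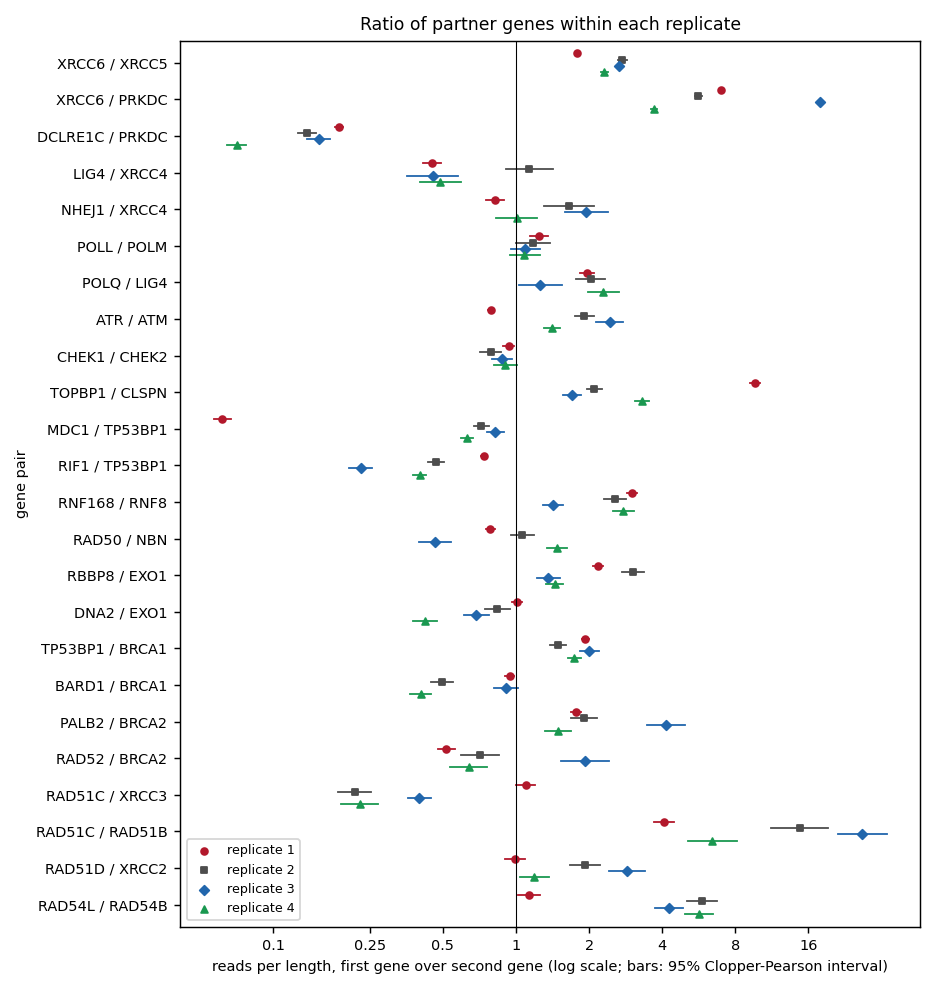
Ratio of reads per length (log scale) of the first gene to the second in 24 pairs, by replicate; symbols are replicates and bars the 95% Clopper-Pearson intervals for counting error. The symbols lie on 1 side of the line at 1 in 16 of the pairs, and the bars of MDC1 / TP53BP1 do not meet between replicate 1, at 0.0618, and the others, between 0.628 and 0.822.

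Replicate 3 was low for many genes of the set. Against the mean of the other 3 replicates, 15 of the 39 genes (38.5%) were past 2-fold lower there on the log2(TPM + 1) scale, which understates the change of low genes, and 17.2% of all detected genes were. They were ATM, ATR, BRCA1, BRCA2, DCLRE1C, LIG4, NBN, PALB2, POLQ, PRKDC, RAD50, RBBP8, RIF1, TOPBP1 and TP53BP1. The 5 lowest differences were those of ATM (-2.38), RIF1 (-2.27), RAD50 (-2.06), BRCA2 (-2.03) and POLQ (-1.81). No gene of the set was past 2-fold higher in replicate 3, and 1.01% of detected genes were. The median difference was -0.82 over the set and -0.31 over the detected genes. Relative to the latter, 9 genes of the set (23.1%) were past 2-fold lower and 9.49% of detected genes, and 1, RAD51C, was past 2-fold higher (2.56%), and 3.91% of detected genes. Against replicates 2 and 4 alone, 12 genes of the set (30.8%) were past 2-fold lower in replicate 3, and 12.0% of detected genes were. Since 1 library is set against others, no test of these counts was made.

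The set is long: its median length in the files was 4831 bases against 3276 for detected genes, and 18 of 39 genes had 5000 bases or more against 24.7% of detected genes. Among those 18, 11 (61.1%) were past 2-fold lower in replicate 3, and 33.3% of detected genes of that length were. Among the 21 shorter ones 4 were (19.0%), LIG4, NBN, PALB2 and RBBP8, and 11.9% of detected genes. Across the 39 genes Spearman's rho between length and the difference in replicate 3 was -0.66, and across the detected genes it was -0.43, with all genes read from the same libraries. The difference in replicate 3 also moved with GC content, with rho of 0.58 across the 39 genes and 0.35 across detected genes, and the 2 properties were not separated. RNF8, RAD54B, MDC1 and CLSPN had over 5000 bases by the files and differences of only 0.01, -0.21, -0.29 and -0.36. Since RAD54B and CLSPN are far shorter by their principal transcript, the classes were repeated with the longest principal transcript. Then 10 of 16 long genes (62.5%) were past 2-fold lower, with 32.9% of detected genes, and 5 of 23 shorter ones (21.7%), with 12.5%. Length thus moved with the result, and its part in it beyond these classes was not tested.

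**Figure D3:**
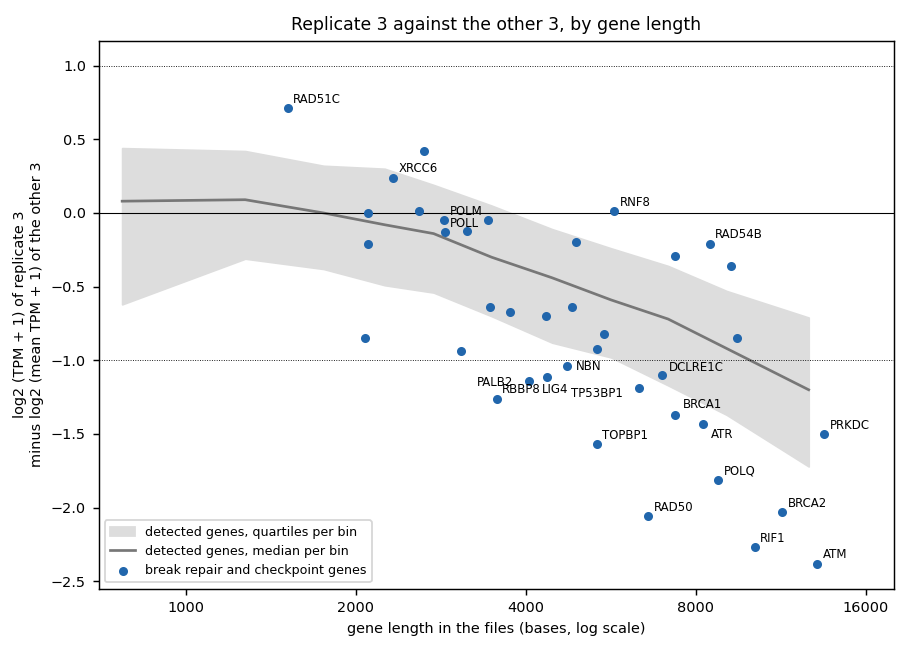
Difference of replicate 3 from the mean of the other 3 replicates (log2(TPM + 1)) against gene length in the files (bases, log scale); points are the 39 genes, the line and band the median and quartiles of detected genes in bins of length, and dotted lines mark 2-fold. Points and line fall with length, from RAD51C at 0.71 to ATM at -2.38.

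Replicate 1 was high for some genes of the set and low for others. There 8 genes (20.5%) were past 2-fold higher than the mean of the others, namely ATM, BARD1, BRCA2, PALB2, RAD51B, RIF1, TOPBP1 and XRCC4, and 16.1% of detected genes were. MDC1 (-2.58), XRCC3 (-1.92) and RAD54L (-1.65) were past 2-fold lower (7.69%), and 20.9% of detected genes were. ATM was 4.32 times the mean of replicates 2 to 4 and MDC1 0.136 times. The directions depend on scaling to protein-coding genes, and statements of which genes were highest in replicate 1 rest on that scaling too. TPM over all rows of the files also takes in the reads per length of the other rows, on which replicate 1 spends more counts. On that scale 0 genes were past 2-fold higher (1.83% of detected genes) and 19 lower (48.7%, against 62.9%). The median gene then moved by -1.31, and that of the set by -0.95. The calls past 2-fold higher in replicate 1 therefore hold with TPM over protein-coding genes and not with TPM over all rows. The same scaling left 8 genes (20.5%) past 2-fold lower in replicate 3, with 7.46% of detected genes.

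The median GC content of the longest coding transcript was 42.5% in the set and 49.1% in detected genes. Of the 6 genes with 50% GC or more, 3 were past 2-fold lower in replicate 1 (34.1% of detected genes of that class) and 0 higher (6.22%). XRCC6, POLL and POLM were the other 3 of that class and differed by 0.31, -0.10 and -0.24. Of the 33 genes below 50% GC, 8 were higher (24.2%, against 25.1%) and 0 lower (8.55%), so the share of higher genes was close to that of other genes of their class. Spearman's rho between GC content and the difference in replicate 1 was -0.67 across the set and -0.51 across detected genes, again within the same libraries. With gene length, rho was 0.41 across the set and 0.09 across detected genes. Whether GC content accounts for the difference was not tested.

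**Figure D4:**
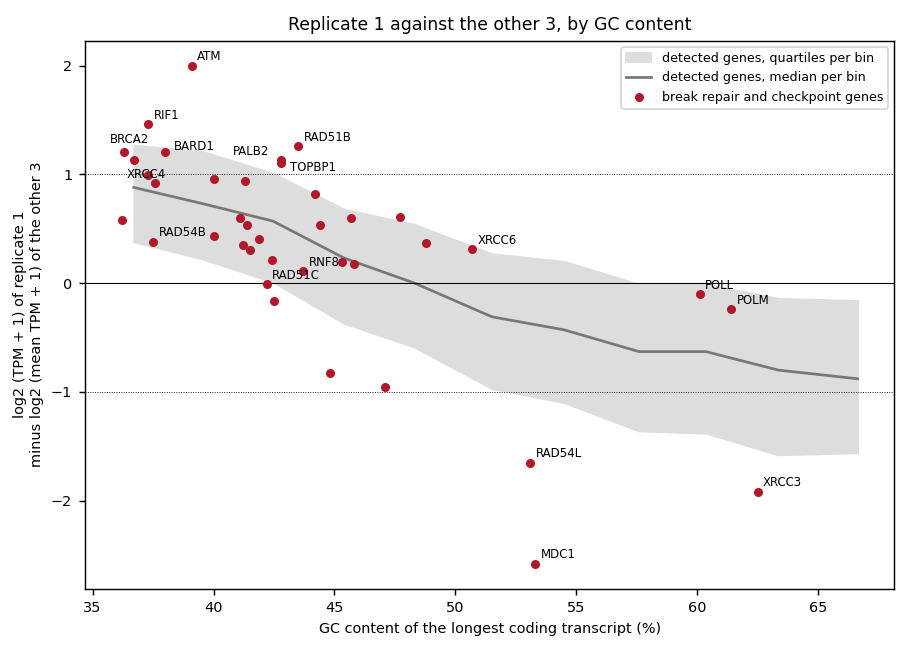
Difference of replicate 1 from the mean of the other 3 replicates (log2(TPM + 1)) against the GC content of the longest coding transcript (%); points are the 39 genes, the line and band the median and quartiles of detected genes in bins of GC content, and dotted lines mark 2-fold. ATM is the highest point, and MDC1, XRCC3 and RAD54L are the lowest and lie below the band. Some genes of lower GC content also lie below it, CLSPN and RAD51D among them.

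Replicates 2 and 4 had the highest Spearman's rho of any 2 replicates for these genes, 0.941, as they did for detected genes (0.967). Each was also set against the mean of all others, which does not measure how close these 2 were. In replicate 2, 0 genes of the set were past 2-fold from that mean, with 3.51% of detected genes higher and 3.36% lower. In replicate 4 there were also 0, with 3.45% higher and 3.55% lower. The median coefficient of variation of the set was 38.5% over all 4 replicates (37.8% for detected genes), 30.8% without replicate 1 (24.8%) and 12.7% over replicates 2 and 4 alone (14.3%). Over replicates 2 and 4 single genes ran from 0.631% (RAD54L) to 36.9% (RAD51B). Under 20% over all 4 lay 8 genes: RNF8, POLL, CHEK2, POLM, CHEK1, NHEJ1, RAD54B and XRCC6. Among detected genes, 16.6% were under 20%. With TPM over all rows, each of these 8 genes except RAD54B was past 2-fold lower in replicate 1. On that scale 48.7% of the set and 62.9% of detected genes were. The low spread of the 8 genes is therefore stated for TPM over protein-coding genes alone.

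The wider pathway was read from a list of 59 further genes, of which 58 were detected. Their median was 26.8 TPM, and 31 were above the median detected gene. H2AFX, the histone phosphorylated at breaks, was the highest with 124, 406, 662 and 477 TPM. MRE11, the nuclease that joins RAD50 and NBN, had 47.4, 19.6, 11.3 and 26.0 TPM. MRE11 was thus highest in replicate 1 and lowest in replicate 3, as NBN was. Of the 58 genes, 8 were past 2-fold lower in replicate 3 and 0 higher, so the share lower (13.8%) was below that of all detected genes (17.2%). These were 5 of the 13 with 5000 bases or more (38.5%, against 33.3% of detected genes) and 3 of the 45 shorter ones (6.67%, against 11.9%). In replicate 1, 7 were past 2-fold higher (12.1%, against 16.1%) and 10 lower (17.2%, against 20.9%). APLF, an end joining factor, was the only gene of the list under the limit, with a mean of 0.946 TPM.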

How the data were processed

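Total RNA of 4 untreated HaCaT cultures was sequenced. The authors deposited raw counts per gene with a gene length for each library, RPKM for replicates 1 and 2 and TPM for replicates 3 and 4. The deposited RPKM and TPM were recomputed from the counts and lengths within 0.1% for 100% of rows. The submitters' processing notes name HISAT2, TopHat2, Bowtie2 and HISAT and the build hg19, without versions or roles. The counting program, the strand setting and the selection of RNA are not given in the sources used here. Gene positions are those of the files, and promoters are on GRCh38.p14. The serum percentage differs between the labels and the methods.

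TPM was computed over protein-coding rows from the counts and the deposited lengths, with a pseudocount of 1 on the log2 scale and a limit of a mean above 1 TPM for detection. Pairs were tested by exact permutation of the signs of the 4 differences, two-sided. With 1 group there was no test of differential expression. All genes of the set are named, and all 4 values are given for the 3 highest and 3 lowest, the highest and lowest of each role, both genes of each pair described and genes past 2-fold in a replicate (up to the 5 largest each way), with others given beside them. Values of some listed genes are not reported here. The set and the gene lists were chosen with earlier results of these data known. Principal transcripts (APPRIS) are those of GENCODE 29, found for all 39 genes and 97.7% of detected genes. GC content was found for 97.7% of detected genes. Overlaps between rows were read from their positions: 21 genes of the set overlap another row and 18 none. Totals per replicate were 73082279, 17056035, 19745170 and 19083836 counts, and 3 counts equal 0.0539, 0.185, 0.159 and 0.163 counts per 1000000 protein-coding counts. The reads carry no molecular identifiers, so intervals and floors cover counting error alone. Alternatives were a pseudocount of 0.1, TPM over all rows, no length correction, other limits, centring, median-ratio size factors and leaving out each replicate. Lengths of principal transcripts, the classes of length and GC content, and leaving out replicates 1 and 3 together were chosen after seeing the data. The step that calls genes past 2-fold was tested on simulated data. The simulation held counting error alone around 1 profile shared by all replicates, so it does not cover the differences between these libraries. The tools were SciPy 1.17.1, pandas 2.3.3, NumPy 2.4.6 and matplotlib 3.10.9, under Python 3.11.15.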

Additional observations from a re-analysis of the deposited data

Results flagged for a closer look

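In 63 sets of 4 replicate values the gap of the highest or lowest replicate to its neighbour was divided by the whole range and set against its 95% critical value. The pair LIG4 minus XRCC4 reached 0.887, since replicate 2 stood above the others, and the pair MDC1 minus TP53BP1 reached 0.887, since replicate 1 stood below the others. For independent sets, chance would give about 1 such set in 20, or 3.15 of 63. Pairs share genes and all sets come from the same 4 libraries, so the sets are not independent. The number is thus a rough guide and does not decide whether these 2 gaps arose by chance.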

How the results depend on the processing

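All 39 genes stayed above the limit under each alternative. Without length correction, LIG4 minus XRCC4 turned to 0.26, ATR minus ATM to -0.09, CHEK1 minus CHEK2 to 1.01, RAD50 minus NBN to 0.28 and PALB2 minus BRCA2 to -0.39, XRCC6 minus PRKDC was 0.30, and 23 genes were above the median gene. Without the filter, 36 were. The following lengths and pairs of replicates were chosen after seeing the data. With the shortest principal transcript, NHEJ1 minus XRCC4 turned to -0.04, CHEK1 minus CHEK2 to 1.04 and RAD52 minus BRCA2 to 0.25. With the longest, RAD52 minus BRCA2 turned to 0.18 and RAD51D minus XRCC2 to -1.13. RAD50 minus NBN ranged from -0.41 to 0.09 when 1 replicate was left out, turning without replicate 3, and was 0.31 without replicates 1 and 3. No pair turned with a pseudocount of 0.1, with TPM over all rows or without replicate 1, 2 or 4. With TPM over all rows, replicates 1 to 4 had 19, 1, 9 and 5 genes past 2-fold. A pseudocount of 0.1 gave 1 in replicate 2 and 1 in replicate 4. Leaving out 1 of the other replicates gave 0 to 4 genes in replicate 2 and 1 to 3 in replicate 4. The median coefficient of variation was 22.3% to 47.9% when 1 replicate was left out, the lowest without replicate 3, and 12.7% without replicates 1 and 3. The cause was not tested for these changes. No paired analysis between conditions was possible because there is 1 group.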
